A study of Sus scrofa with 5 samples.

Results

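The glutathione S-transferases described here are 10 gene names in RNA sequencing of pig ovarian follicles: GSTA1, LOC100526118, LOC780435, GSTA4, GSTM3, GSTP1, GSTO1, GSTK1, MGST1 and MGST3. They were matched by gene name to the deposited tables, which list 30822 genes. A row was found for 9 of the 10, and no row carries the name GSTP1. The gene descriptions place 16 further rows beside them, of which 14 name a glutathione transferase and 2 (GSTCD and an unnamed transcript) name only a transferase domain. The genes were chosen with their difference between large and small follicles already known, so that difference is given here as a description and without a test.

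The study compared ovarian follicles of 2 sizes, taken from female pigs (Sus scrofa) of the Indian Ghoongroo breed. Large follicles gave 3 libraries and small follicles 2, labelled as biological replicates, and no group received an agent. The labels used here state neither follicle diameters, nor the age of the animals, nor how many follicles or animals entered a library, so the spread between libraries, and with it every p-value, may be technical in part. Libraries held 9523739 to 11507527 fragments, and values are FPKM, a level per gene length and per library size that allows genes to be compared. The most alike pair of libraries of 1 group still differed well beyond sampling noise, with a chi-square per degree of freedom of 28.5 over genes.

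Glutathione S-transferases join the tripeptide glutathione to reactive compounds, which makes them soluble and marks them for export. The cytosolic enzymes form classes named alpha, mu, pi, omega, theta and zeta. Kappa enzymes sit in mitochondria and peroxisomes, and the microsomal enzymes (MGST), of the MAPEG family, are unrelated membrane proteins. Alpha-class enzymes are abundant in steroid-producing tissues, and some of them also isomerise steroid intermediates on the way to progesterone and androgens.

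GSTA1, an alpha-class enzyme, had far higher levels in large than in small follicles. Its level was 759, 1431 and 1344 FPKM in large follicle replicates 1, 2 and 3, and 57.4 and 46.9 FPKM in small follicle replicates 1 and 2. The lowest large follicle library was 13.2 times the highest small follicle library, and large follicle replicate 1 stood below the other 2 of its group. The means were 1178 ± 365 FPKM (SD, n = 3) and 52.2 ± 7.44 FPKM (SD, n = 2), a 22.6-fold difference of level. As a difference of log2(FPKM + 1), large minus small, a scale that shrinks changes at low levels, it was 4.42 with an SE of 0.30. These levels rest on 8967 to 14674 fragments per library in large and 483 to 561 in small follicles, so counting error is small beside the spread between libraries. GSTA1 (gene 397682) lies on chromosome 7 of Sscrofa11.1, from 46538743 to 46550781 on the minus strand. In whole follicles, more cells of a type and more RNA per cell cannot be told apart.

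LOC100526118, which the gene description calls glutathione S-transferase A1-like, was the other alpha-class member with non-overlapping groups. It had 212, 263 and 266 FPKM in large follicle replicates 1 to 3 and 65.4 and 65.0 FPKM in the small follicle libraries. The fold of means was 3.79 and the log2 difference 1.90 (SE 0.20), less than for GSTA1. The ratio of GSTA1 to LOC100526118 within a library was 3.59, 5.44 and 5.06 in large follicles and 0.877 and 0.722 in small follicles. GSTA1 was thus the lower of the pair in both small follicle libraries and the higher in all 3 large follicle libraries.

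GSTA4, an alpha-class enzyme with a preference for products of lipid peroxidation such as hydroxynonenal, had almost the same level in both groups. It had 406, 336 and 344 FPKM in large follicles and 359 and 331 FPKM in small follicles, and the groups overlapped. Its log2 difference was 0.06 (SE 0.22), less than the spread between replicates. In small follicles GSTA4 stood well above GSTA1, which was 0.160 and 0.142 of its level. In large follicles GSTA1 was 1.87, 4.26 and 3.91 times GSTA4.

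The mu-class members had higher values in large follicles too, at much lower levels. GSTM3, a mu-class enzyme, had 55.0, 45.8 and 39.6 FPKM in large and 28.5 and 22.7 FPKM in small follicles. All 3 large follicle libraries were above both small ones, with a log2 difference of 0.84 (SE 0.22). LOC780435 carries the description glutathione S-transferase mu 2, so it is a mu-class row and not a neighbour of GSTA1; it lies on chromosome 4 of Sscrofa11.1, from 110451442 to 110457254. Its level was 5.97, 6.47 and 4.41 FPKM in large follicles against 0.431 and 0.511 FPKM in small ones, an 11.9-fold difference of means. The small follicle values come from 4 and 5 fragments, and over both libraries the exact Poisson 95% interval was 0.216 to 0.896 FPKM, covering counting error only. On the log2(FPKM + 1) scale its difference was 2.16 (SE 0.28), and 3.31 with a pseudocount of 0.1. LOC780435 was the only member that passed the filter on low values (2 or more libraries with FPKM of at least 1) through the large follicle libraries alone.

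The microsomal members parted. MGST1, a membrane enzyme of the endoplasmic reticulum and outer mitochondrial membrane that also reduces lipid hydroperoxides, had 623, 861 and 1177 FPKM in large and 370 and 448 FPKM in small follicles. The groups did not overlap, although large follicle replicate 1 lay closer to the small follicle libraries than to replicate 3. The fold of means was 2.17 and the log2 difference 1.07 (SE 0.30). MGST3, another microsomal enzyme, had 50.9, 44.4 and 44.9 FPKM against 54.3 and 45.3 FPKM, and the groups overlapped (log2 difference -0.09, SE 0.20).

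The omega and kappa members differed by less than the spread between replicates. GSTO1, which acts more as a thioltransferase and dehydroascorbate reductase than as a conjugating enzyme, had 60.2, 63.1 and 43.4 FPKM in large and 58.9 and 57.0 FPKM in small follicles. Both small follicle values fell inside the range of the large ones (log2 difference -0.08, SE 0.22). GSTK1 had 23.7, 19.7 and 20.9 FPKM against 23.2 and 20.1 FPKM, with overlapping groups (log2 difference -0.02, SE 0.22).

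**Figure D1:**
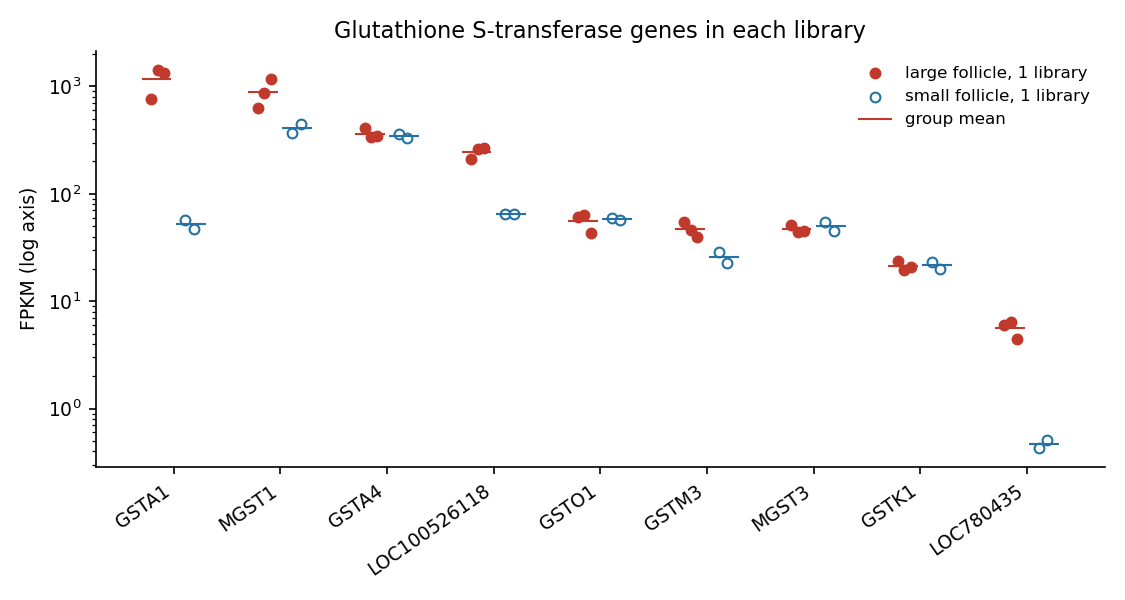
FPKM (log axis) of the 9 glutathione S-transferase genes found, one point per library (filled red, 3 large follicle libraries; open blue, 2 small follicle libraries), with a line at each group mean. GSTA1 at 1178 against 52.2 FPKM and LOC780435 at 5.62 against 0.471 FPKM show the widest gaps, while GSTA4, GSTO1, GSTK1 and MGST3 overlap.

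Across the 9 members, 5 had groups that did not overlap, all of them higher in large follicles. Over all 13087 genes tested, 10.9% did not overlap and were higher in large follicles, and 26.1% did not overlap in either direction. Since these members were picked on this contrast, nothing is read from this count. The log2 difference of the 9 members ranged from -0.09 to 4.42, with a median of 0.84, beside a median of -0.08 over all genes tested.

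The 16 rows outside the list were taken by their description alone. Of these, 11 passed the filter on low values, with alpha, mu, pi, theta and zeta rows among them but no omega, kappa or microsomal one. Of the 11, 8 had a log2 difference above 0 (72.7%, beside 39.9% of all genes tested) and 3 below, with a median of 0.26. Limma called 0 of the 11 at a Benjamini-Hochberg adjusted p under 0.05, beside 0.978% of all genes tested, and limma voom on recovered fragments called 0. At an unadjusted p under 0.05 there were 2, LOC110260350 and LOC106504562, beside 10.4% of all genes. LOC110260350, described as glutathione S-transferase Mu 1-like, had 2.21, 1.51 and 1.67 FPKM in large and 0.334 and 0.0792 FPKM in small follicles (log2 difference 1.21, SE 0.26, limma adjusted p = 0.0680). LOC110260350 passed the filter through the large follicle libraries alone, so nothing is read from its p-values or its sign. Its small follicle values rest on 5 fragments over both libraries. Leaving out 1 library at a time gave log2 differences from 1.06 (without small follicle replicate 2) to 1.37 (without small follicle replicate 1). LOC106504562, described as glutathione S-transferase alpha M14 but annotated as a long noncoding RNA, had 63.4, 98.8 and 98.6 FPKM against 44.2 and 67.4 FPKM, with overlapping groups (log2 difference 0.63, SE 0.27, limma adjusted p = 0.453). LOC100739163, described as glutathione S-transferase P-like, had 577, 654 and 419 FPKM in large and 733 and 478 FPKM in small follicles, with a log2 difference of -0.13 (SE 0.29, limma adjusted p = 0.936). It is the abundant pi-class row in a table that has none named GSTP1.

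The remaining outside rows were low or alike between groups. LOC100153094, the theta row with the synonym GSTT1 in RefSeq, averaged 53.2 against 43.8 FPKM (log2 difference 0.28, SE 0.19). GSTZ1, the zeta enzyme of tyrosine breakdown, averaged 18.9 against 18.5 FPKM. LOC110260348, another Mu 1-like row, averaged 18.0 against 15.9 FPKM. LOC100510917 (described as A4), LOC106510200 (Mu 1), LOC100739508 (a second P-like row), GSTCD and the unnamed transcript with transferase domains had means between 0.998 and 4.53 FPKM in large follicles. None of these 8 had a limma adjusted p under 0.05, and the smallest was 0.714 for LOC106510200. MGST2, a microsomal enzyme left out by the filter, had 0.912, 0.715 and 0.747 FPKM against 0.0938 and 0.200 FPKM, from 13 fragments over both small follicle libraries. LOC110260351, a further Mu 1-like row under the filter, went the other way, with a mean of 0.298 in large and 0.880 FPKM in small follicles from 6 and 11 fragments in all. The other 3 untested rows (LOC100156976, LOC100151901 and LOC100152209) stayed under 1 FPKM in all 5 libraries.

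**Figure D2:**
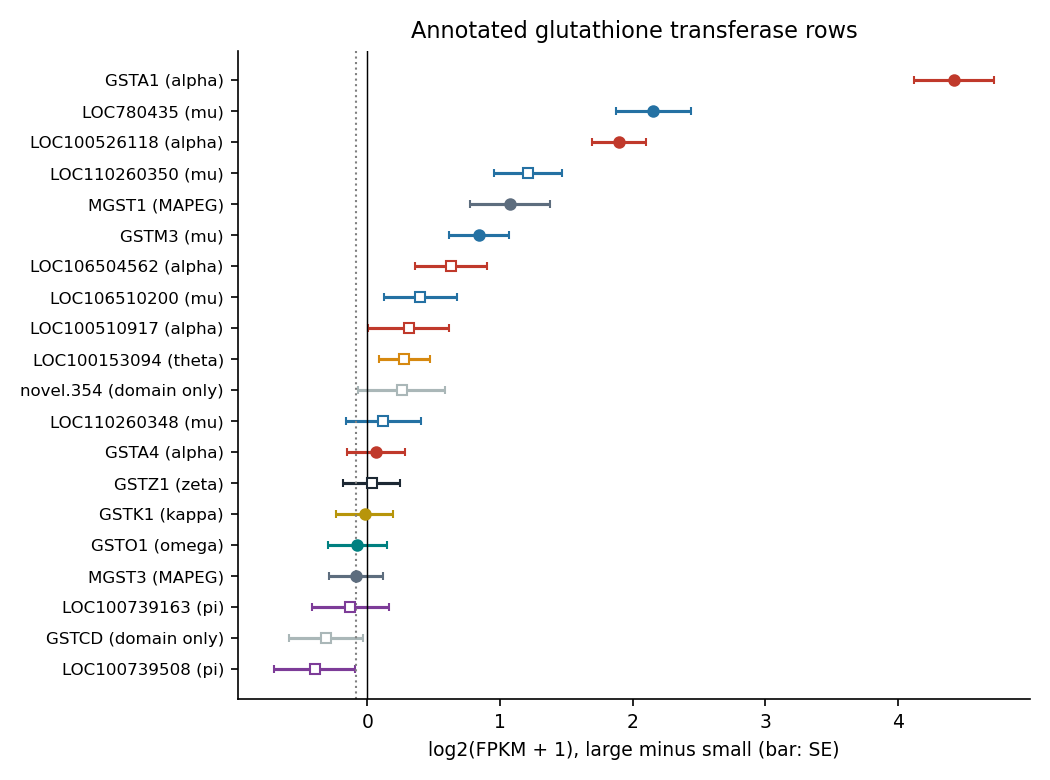
Difference of log2(FPKM + 1), large minus small follicles, with its SE as a bar, for the 20 annotated glutathione transferase rows that passed the filter on low values; filled circles are the 9 members, open squares the 11 rows taken by description, colours mark the class, and the dotted line is the median of all genes tested (-0.08). GSTA1 at 4.42 lies far to the right, and most rows lie within 1 unit of 0.

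The make-up of transferase RNA differed between the follicle sizes. Summed over the 23 rows described as transferases, the level was 2949, 3921 and 3897 FPKM in large and 1878 and 1674 FPKM in small follicles, 2.02-fold higher in the mean. Without GSTA1 the sums were 2189, 2489 and 2552 against 1821 and 1627 FPKM, 1.40-fold higher. GSTA1 made up 25.8%, 36.5% and 34.5% of the summed level in large follicles and 3.06% and 2.80% in small follicles. It was the most abundant transferase row in each large follicle library, ahead of MGST1. In both small follicle libraries the P-like row LOC100739163 came first, at 39.0% and 28.6%, followed by MGST1 and then GSTA4. The alpha class, GSTA1 included, took 52.0% ± 2.76 (SD, n = 3) of the level in large follicles. In small follicles it took 29.4% ± 1.80 (SD, n = 2). Within the class, large against small, the mean share was 32.3% and 2.93% for GSTA1 and 6.90% and 3.68% for LOC100526118. For GSTA4 it went the other way, at 10.4% and 19.5%. The share of the microsomal rows was 25.8% ± 4.83 and 26.0% ± 4.90. These shares were not tested.

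By mean level, the order in large follicles was GSTA1, MGST1, LOC100739163, GSTA4 and LOC100526118. This order held within each of the 3 large follicle libraries. Across libraries the ranges of GSTA1 and MGST1 overlapped, as did those of MGST1 and LOC100739163. Below LOC100526118, the rows LOC106504562, GSTO1, LOC100153094, GSTM3 and MGST3 lay between 46.7 and 86.9 FPKM. In small follicles LOC100739163, MGST1 and GSTA4 led, and LOC100526118, GSTO1, LOC106504562 and GSTA1 followed at 65.2, 58.0, 55.8 and 52.2 FPKM, where the libraries of LOC106504562 overlapped those of the other 3.

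**Figure D3:**
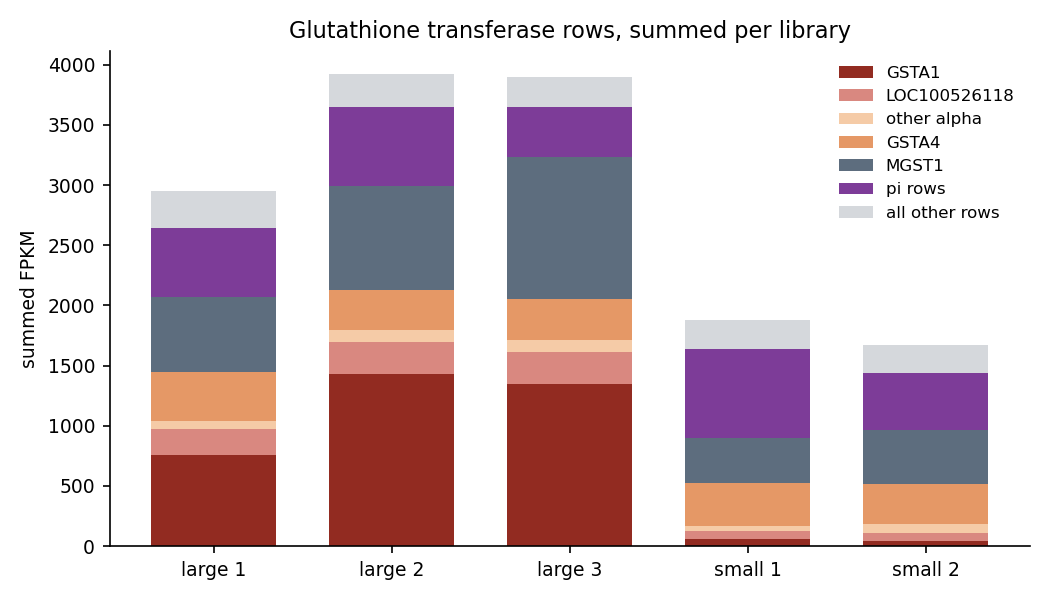
Summed FPKM of the 23 glutathione transferase rows in each of the 5 libraries, stacked by row or class (linear axis from 0). The GSTA1 segment takes 25.8% to 36.5% of the bar in the large follicle libraries and 2.80% to 3.06% in the small ones.

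The alpha-class rows form 1 cluster on chromosome 7, 118 kb long, all on the minus strand. In order of position they are GSTA1, LOC106504562, LOC100526118, LOC100510917 and GSTA4, with log2 differences of 4.42, 0.63, 1.90, 0.31 and 0.06. Rows with unlike differences thus stand next to each other in this stretch, such as 4.42 beside 0.63. The mu-class cluster on chromosome 4 spans 127 kb and runs from GSTM3 to LOC780435, with LOC106510200 (0.40), LOC110260350 (1.21) and LOC110260348 (0.12) among the rows between them. Of the 5 protein-coding genes annotated on each side of both clusters, 13 passed the filter. Limma called 0 of them, beside 0.978% of all genes tested, and limma voom called 0. At an unadjusted p under 0.05 there was 1 (7.69%, beside 10.4% of all genes). That gene was TRAM2, a translocon-associated protein encoded before the alpha cluster, which had lower values in large follicles (log2 difference -1.42, SE 0.38, limma adjusted p = 0.152). TRAM2 passed the threshold in 1 of 12 alternatives, the fit without large follicle replicate 2 (limma adjusted p = 0.0435). TMEM14A and ICK, the nearest tested genes on either side of the alpha cluster, had log2 differences of 0.38 (SE 0.40) and -0.51 (SE 0.39).

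**Figure D4:**
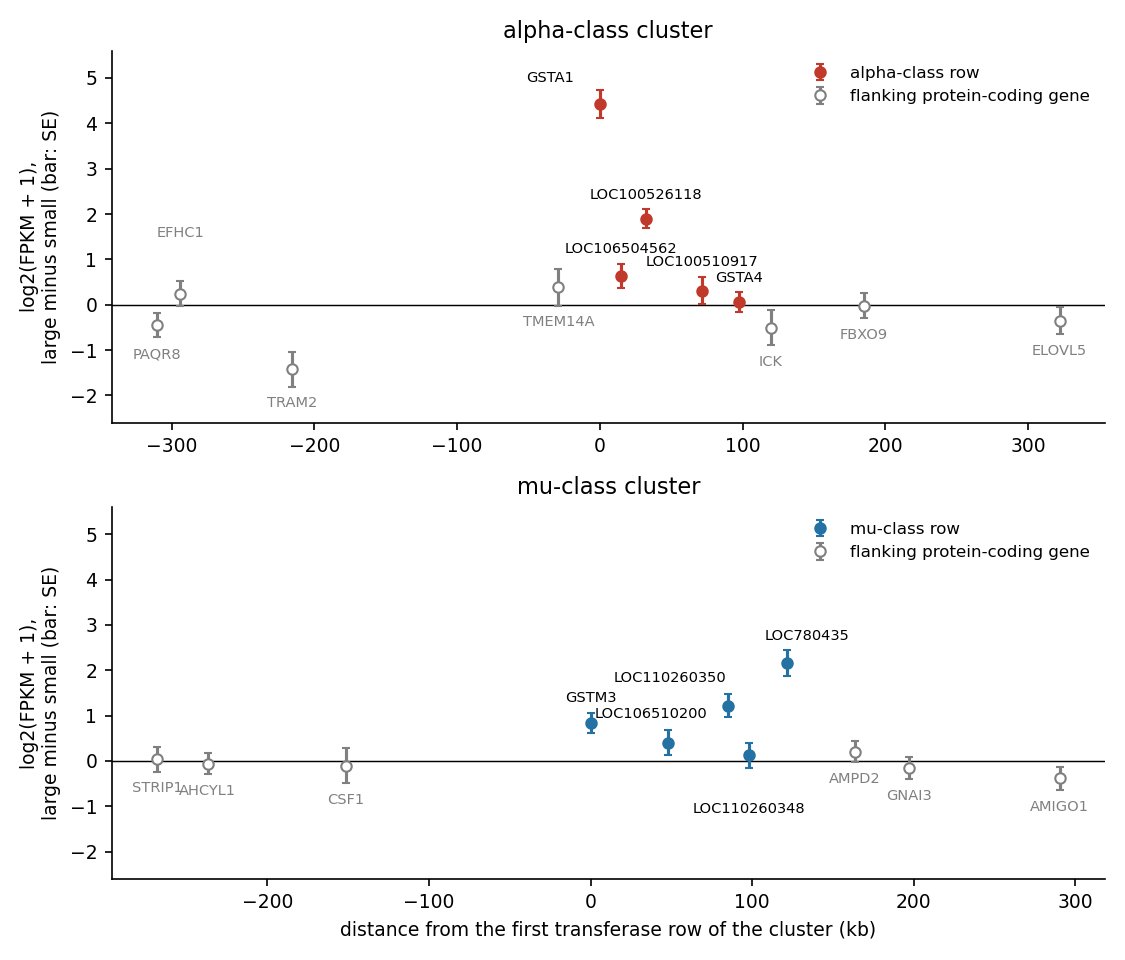
Difference of log2(FPKM + 1), large minus small follicles, with its SE, by distance in kb from the first transferase row of the alpha cluster (top) and of the mu cluster (bottom); filled points are transferase rows and open grey points flanking protein-coding genes. In the alpha cluster the values range from 4.42 at GSTA1 to 0.06 at GSTA4 without a steady fall, with 0.63 at LOC106504562 and 1.90 at LOC100526118. The flanking genes lie between -1.42 and 0.38.

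The genes of the alpha cluster are close relatives, and no source used here says how the authors' counting assigned fragments that match more than 1 of them. Exchange among GSTA1, LOC106504562 and LOC100526118 leaves the sum of their fragments as it is. Large follicle replicates 1 to 3 held 12404, 18617 and 18584 such fragments and the small follicle libraries 1716 and 1972, and the fold of means was 8.35 after division by each library's total. The split of this level among the 3 rows is uncertain. Their sum does not cover fragments that were left uncounted or assigned to other rows, such as LOC100510917 or GSTA4.

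The genes with the profile most like that of GSTA1 were found by the root mean square difference of log2(FPKM + 1), centred on each gene's mean over the 5 libraries. The 5 nearest among all genes tested were LCN2, a secreted protein that binds iron-siderophore complexes (0.35), LOC102164588, a long noncoding RNA (0.63), LOC110258347, annotated as a C region segment (0.66), an unnamed transcript (0.66), and PENK, the enkephalin precursor (0.68). LCN2 had 46.1, 94.9 and 45.0 FPKM in large and 1.99 and 1.09 FPKM in small follicles. Among the transferases the nearest to GSTA1 were LOC780435 at 1.18 and LOC100526118 at 1.26, with 31 and 34 tested rows nearer, GSTA1 itself counted. MGST1 and GSTM3 followed at 1.66 and 1.81, behind the Mu 1-like row LOC110260350 at 1.63. This distance depends on the size of the difference between groups, on which the members were chosen, so nothing is read from their order.

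Of the genes that supply, recycle and spend glutathione, 1 of 63 tested was called by limma, a share near that of all genes. In 5 lists with 75 annotated genes, 63 were tested. Of these, 35 had a log2 difference above 0 (55.6%, beside 39.9% of all genes) and 28 below, with a median of 0.08 beside -0.08 over all genes. The call was 1 higher and 0 lower, 1.59% beside 0.535% of all genes called higher and 0.978% in either direction, and limma voom called 0. At an unadjusted p under 0.05 there were 8 (12.7%, beside 10.4% of all genes). GPX1, the abundant cytosolic glutathione peroxidase, rose, with 367, 425 and 304 FPKM in large and 172 and 143 FPKM in small follicles (log2 difference 1.20, SE 0.23, limma adjusted p = 0.0476). All 3 large follicle libraries were above both small ones, but the call was lost in 9 of 13 alternatives (adjusted p of 0.0522 to 0.263), among them those without large follicle replicate 1 (0.144), small follicle replicate 1 (0.0944) and small follicle replicate 2 (0.263). GPX4, which reduces lipid hydroperoxides in membranes, had 254, 216 and 182 against 159 and 141 FPKM (log2 difference 0.52, SE 0.22, limma adjusted p = 0.449). GLRX2, a mitochondrial glutaredoxin, had a log2 difference of 0.55 (SE 0.28, limma adjusted p = 0.570). GPX3, the secreted peroxidase, had the highest level of the peroxidases at 841 to 1442 FPKM over the 5 libraries, with overlapping groups.

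In the list of glutathione synthesis and turnover, limma called 0 of 15 tested genes, beside 0.978% of all genes, and limma voom called 0. At an unadjusted p under 0.05 there were 4 (26.7%, beside 10.4% of all genes). GCLC, the catalytic subunit of the rate-limiting ligase, had 66.8, 117 and 169 FPKM in large and 50.2 and 130 FPKM in small follicles (log2 difference 0.44, SE 0.44). GSS, the synthetase of the final step, had 19.0 to 19.9 FPKM in every library.

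The smallest p of this list belonged to a pair of enzymes that break down glutathione and its conjugates. DPEP1, a dipeptidase that cleaves the cysteinylglycine left by the first cut, had 8.19, 6.62 and 5.88 FPKM in large and 1.97 and 1.86 FPKM in small follicles (log2 difference 1.43, SE 0.28, limma adjusted p = 0.0553). GGT1, the surface transferase that makes that first cut, had 71.2, 115 and 70.8 against 40.1 and 36.2 FPKM (log2 difference 1.11, SE 0.25, limma adjusted p = 0.0877). For both genes the groups did not overlap. DPEP1 passed the threshold in 3 of 12 alternatives, among them the fit without large follicle replicate 2 (limma adjusted p = 0.0359). GGT1 passed it in 2 of 13, among them the fit without large follicle replicate 3 (limma adjusted p = 0.0292). CHAC1, an intracellular glutathione-degrading enzyme, had the largest difference of the list and is named after its values were seen, at 14.8, 46.9 and 23.9 against 6.66 and 8.91 FPKM (log2 difference 1.61, SE 0.41, limma adjusted p = 0.126). CHAC1 passed the threshold in 2 of 13 alternatives, among them the fit without large follicle replicate 3 (limma adjusted p = 0.0181).

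Export of conjugates, the NRF2 system and other glutathione-dependent enzymes gave 0 calls by limma, beside 0.978% of all genes, and 0 by limma voom. Of 8 tested genes of export and later steps, 0 passed at an unadjusted p under 0.05, beside 10.4% of all genes. With so few genes, nothing is read from these counts of 0. The pump ABCG2 had a log2 difference of 0.31 (SE 0.24, limma adjusted p = 0.758). NRF2, encoded by NFE2L2, is the factor that raises many transferase and glutathione genes under oxidative stress. Of the 16 tested regulators and targets in its list, 5 had a log2 difference above 0 (31.3%, beside 39.9% of all genes) and 11 below, with a median of -0.18. At an unadjusted p under 0.05 there was 1 (6.25%, beside 10.4% of all genes). That gene was NQO1, a quinone reductase and standard NRF2 target, with 33.8, 28.0 and 30.0 FPKM in large and 40.1 and 52.6 FPKM in small follicles (log2 difference -0.57, SE 0.22, limma adjusted p = 0.364). ME1, which makes NADPH, had a log2 difference of 0.81 (SE 0.37, limma adjusted p = 0.506). Among 10 tested glutathione-dependent enzymes of other pathways, 1 passed at an unadjusted p under 0.05 (10%, beside 10.4% of all genes). PTGES, the prostaglandin E synthase of the MAPEG family, had 336, 992 and 438 FPKM in large and 191 and 239 FPKM in small follicles (log2 difference 1.30, SE 0.40, limma adjusted p = 0.246), and HAGH, of the glyoxalase pathway, 0.41 (SE 0.23, limma adjusted p = 0.605).

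**Figure D5:**
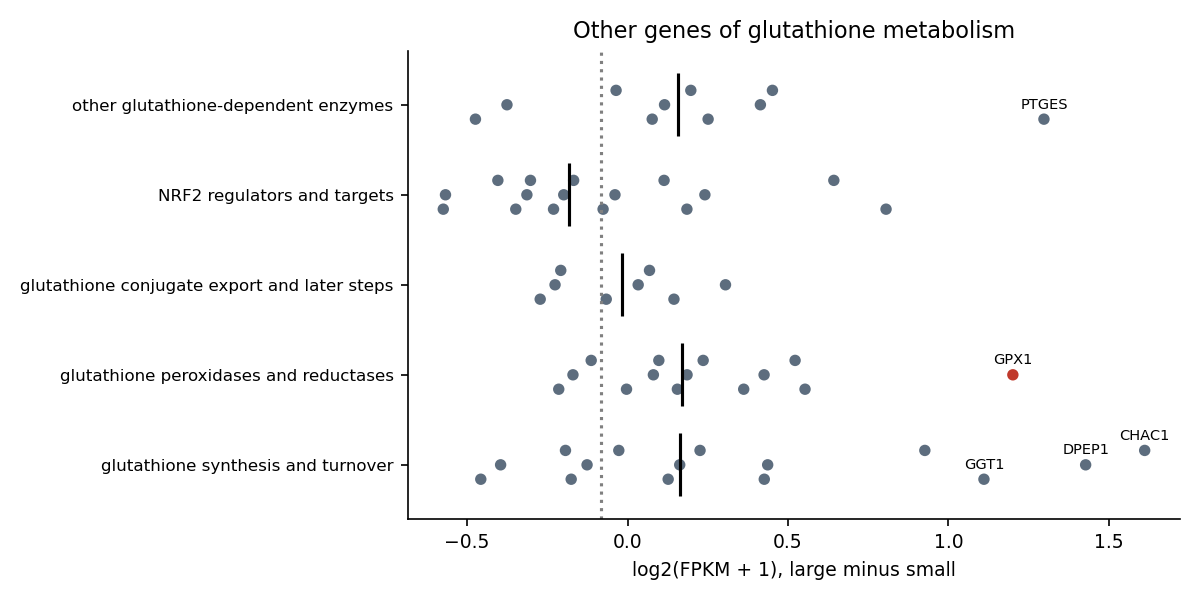
Difference of log2(FPKM + 1), large minus small follicles, for the 63 tested genes of 5 lists of glutathione metabolism; each point is a gene, the black bar the median of a list, the dotted line the median of all genes tested (-0.08), and red marks GPX1, the gene called by limma. DPEP1, GGT1, CHAC1 and PTGES lie above 1 without being called.

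Markers of other cell types moved with follicle size in a mixed way, counted by the sign of their log2 difference and by their summed level. Of all genes tested, 39.9% had a log2 difference above 0, and the counts by sign below stand beside that share. The marker lists were chosen with earlier results of these data known, so nothing is read from the calls of single markers. Of 9 theca and steroidogenic markers, 6 were above 0 and 3 below, and their summed level was 2122 to 4480 FPKM in large and 1009 to 1292 FPKM in small follicles. CYP17A1, the enzyme that opens androgen synthesis, was the 1 marker of this list that rose by limma (log2 difference 3.07, SE 0.44, limma adjusted p = 0.0121). Of 10 granulosa markers, 4 were above 0 and 6 below, with a median of -0.48, although their sum was 5831 to 14262 against 4257 to 5982 FPKM, with overlapping groups. That sum is mostly INHA, the inhibin alpha subunit, at 7555 against 3196 FPKM in the mean. INHBB, an inhibin beta subunit, was the 1 granulosa marker that fell by limma (log2 difference -2.94, SE 0.47, limma adjusted p = 0.0237).

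All 8 myeloid markers were above 0, and LYZ, the lysozyme gene, was the 1 that rose by limma (log2 difference 2.74, SE 0.21, limma adjusted p = 0.000551). Their sum was 191 to 265 against 96.5 to 104 FPKM. In the other 5 marker lists limma called 0 genes, beside 0.978% of all genes tested. The 3 red blood cell markers tested were above 0 (sum of 5 markers 1003 to 1675 against 233 to 701 FPKM). That sum is nearly all HBB, the hemoglobin beta gene, at 1318 against 464 FPKM in the mean. Endothelial markers were above 0 in 5 of 7 (sum 261 to 320 against 212 to 234 FPKM). Of the oocyte markers 4 of 5 tested were above 0 (sum of 6 markers 46.2 to 64.9 against 26.4 to 38.0 FPKM), and of the smooth muscle markers 4 of 5 (3692 to 4488 against 3095 to 3110 FPKM). For surface epithelium 2 of 3 tested were above 0, and the sums of 6 genes overlapped, at 7.26 to 17.6 against 11.0 to 15.3 FPKM. None of these markers was at 0 in every library, and KRT18, UPK3B, SLC4A1 and NPM2 stayed under 1 FPKM throughout. The part of cell make-up in the transferase differences was not tested.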

How the data were processed

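Per the labels' protocols, TRIzol total RNA from 5 follicle samples went into stranded mRNA paired-end libraries. The authors deposited FPKM per gene and library. Build Sscrofa11.1, featureCounts 1.5.0-p3, HISAT2 2.0.5, StringTie 1.3.3, Trimmomatic 0.38 and FastQC 0.11.4 are named in the submitters' processing notes; no source used here says whether counting used the strand. Chromosome numbers come from a RefSeq table of that build.

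Library totals and whole fragments were recovered from the FPKM steps, within 0.001 of a fragment: 49.5% of the 23353 genes above 0 fitted the listed length, the others a shorter one. For GSTA4, LOC780435, MGST1 and MGST3 that length was 1245, 975, 818 and 737 bases. Recovered fragments made up 99.5% to 99.6% of each library total, and 3 fragments in 1000 bases equal 0.261 to 0.315 FPKM.

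Genes with FPKM of at least 1 in 2 libraries were fitted with limma 3.58.1 in R 4.3.3 (two-sided, mean-variance trend, Benjamini-Hochberg over all genes) on log2(FPKM + 1), with follicle size as the only term. The fit was also run on simulated data, the outcome of which is not given or used here. Alternatives were other pseudocounts, filters and scalings, a replicate block, limma voom on recovered fragments and each library left out. Named were all members, all outside transferase rows, and per list the called genes and the 2 others of smallest p. The flanking genes and the profiles nearest GSTA1 followed the rules stated with them. Members and lists were chosen with earlier results of these data known. Values of 2 list genes are not reported here. No sequences were used here.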

Additional observations from a re-analysis of the deposited data

How the results depend on the processing

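The count of genes called by limma was 128 (70 higher, 58 lower in large follicles). It was 32 with no filter on low values, 41 at a mean FPKM of at least 5, 210 with median-of-ratios scaling and 69 with limma voom on recovered fragments. Leaving out large follicle replicates 1, 2 and 3 in turn gave 29, 284 and 207 calls, and leaving out small follicle replicates 1 and 2 gave 74 and 61. With libraries scaled to a common FPKM sum 66 genes were called higher and 86 lower, and under the filter on mean FPKM they were 31 and 10. That scaling to a common sum moved the median log2 difference of all genes from -0.08 to -0.19.

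Among the glutathione genes outside the members, the count called was 1. It was 0 with a pseudocount of 5, with no filter, with the filter on mean FPKM and with voom, 2 with median-of-ratios scaling (DPEP1 and LOC110260350) and 0 to 3 when a library was left out. With the replicate number as a block, over the 4 libraries whose numbers occur in both groups, it was 4 (GGT1, CHAC1, GPX1 and PTGES), and 154 genes were called in all. Nothing in the labels says that a shared number marks a shared animal or batch. With a pseudocount of 0.1 the gene called was DPEP1 in place of GPX1. LOC110260350 passed the filter on low values through the large follicle libraries alone, so nothing is read from its calls.

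The log2 difference of GSTA1 stayed between 4.26 and 4.71 over 13 alternatives, that of LOC100526118 between 1.77 and 2.00, that of MGST1 between 0.85 and 1.30 and that of GSTM3 between 0.68 and 0.997. LOC780435 ranged from 0.95 with a pseudocount of 5 to 3.42 with voom; the filter on mean FPKM removed it. GSTA4, GSTO1, GSTK1 and MGST3 took both signs, within -0.21 and 0.15. Of 625 values of single genes under an alternative, 604 kept their side of the threshold or stayed within the spread between replicates, and 0 called values changed sign.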
